A study of Mus musculus with 24 samples.

Results

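The genes that make and move bile acids were described here by the DNA methylation of their promoters and bodies in mouse liver, brain and heart. The 10 genes were taken as a named list covering synthesis (Cyp7a1, Cyp8b1 and Cyp27a1), conjugation (Baat and Slc27a5), uptake (Slc10a1), export into bile (Abcb11, Abcc2 and Abcb4) and feedback (Nr0b2), out of 24963 RefSeq genes on the autosomes of the mm10 build. Methylation was measured by enhanced reduced representation bisulphite sequencing (RRBS), in which restriction fragments rich in CpG are sequenced after bisulphite has converted unmethylated cytosines. The mice were C57Bl/6J littermate pairs aged 24 weeks, kept on one chow and given no treatment, and the libraries came from bulk tissue of 6 female and 6 male livers, 3 female and 3 male brains, and 3 female and 3 male hearts. DNA was taken from the caudal tip of the left liver lobe, the rostral end of the brain and the apex of the heart, so each tissue was represented by that piece. The libraries of the deposited tables could be tied to a tissue but not to a mouse or a gender, so each tissue level is the mean over all its libraries, 12 for liver, 6 for brain and 6 for heart, and males and females were not compared.

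Bile acids are made from cholesterol in hepatocytes, are joined to taurine or glycine, and are pumped into the bile canaliculus, from which they reach the gut and return through the portal blood. Hepatocytes take them up again at the sinusoidal membrane, and bile acids returning to the liver repress their own synthesis through nuclear receptors. Neither brain nor heart carries out this cycle, although Cyp27a1 is also used for the oxidation of sterols in many other cells.

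Methylation levels were given for tiles of 100 bp, as the percentage of cytosines read as methylated in CpG context. A tile was placed by the distance of its centre from the transcription start, with positive distances inside the gene. Tiles from 5 kb upstream of the start up to the start were called promoter tiles, and those from the start to the end of the gene were called body tiles. The 10 genes held 198 tiles in at least 1 table and 152 in all 3, of 758685 tiles present in all 3 tables. Of the 152 tiles, 140 lay in bodies and 12 in promoters, and only Cyp8b1, Cyp27a1, Abcc2 and Abcb4 had a promoter tile in all 3 tables. No tile overlapped another RefSeq gene. The number of tiles per gene ran from 2 in Nr0b2 to 35 in Abcb4, and among them the tile nearest to the start lay at 2881 bp in Cyp7a1, 6807 bp in Baat and 7454 bp in Slc10a1. The heart table alone held tiles nearer to the Slc10a1 start, at +554 and +654 bp, with levels of 81.7% and 71.4%, which could not be compared with liver or brain.

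The sequence of 1 tile per gene is shown for its difference of liver against brain and heart together. That difference was the largest among the tiles of the gene called in both comparisons. For Slc10a1, which had no tile called in both comparisons, the tile closest to the start is shown instead. Each is the plus strand of mm10, 5′ to 3′, with the CpGs that bisulphite sequencing reads in capitals.
Cyp7a1: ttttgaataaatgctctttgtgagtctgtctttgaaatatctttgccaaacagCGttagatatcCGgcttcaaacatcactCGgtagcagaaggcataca
Cyp8b1: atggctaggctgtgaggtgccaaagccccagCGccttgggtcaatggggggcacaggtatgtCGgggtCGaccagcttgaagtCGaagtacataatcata
Cyp27a1: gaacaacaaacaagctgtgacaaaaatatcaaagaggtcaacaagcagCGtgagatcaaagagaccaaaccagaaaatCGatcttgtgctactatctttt
Baat: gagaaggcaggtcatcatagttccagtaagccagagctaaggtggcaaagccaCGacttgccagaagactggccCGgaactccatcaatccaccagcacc
Slc27a5: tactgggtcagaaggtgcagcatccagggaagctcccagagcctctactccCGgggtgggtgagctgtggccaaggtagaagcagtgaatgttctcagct
Slc10a1: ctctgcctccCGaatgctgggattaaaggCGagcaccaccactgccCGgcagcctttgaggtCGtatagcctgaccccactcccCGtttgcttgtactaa
Abcb11: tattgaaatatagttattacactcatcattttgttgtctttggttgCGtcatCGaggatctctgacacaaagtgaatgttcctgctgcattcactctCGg
Abcc2: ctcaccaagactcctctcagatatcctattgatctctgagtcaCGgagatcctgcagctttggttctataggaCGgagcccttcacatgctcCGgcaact
Abcb4: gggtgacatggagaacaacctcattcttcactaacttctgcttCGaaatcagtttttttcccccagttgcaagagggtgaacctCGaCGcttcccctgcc
Nr0b2: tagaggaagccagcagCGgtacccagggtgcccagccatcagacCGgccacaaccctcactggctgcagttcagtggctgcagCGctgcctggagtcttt

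These tiles lay at chr4:6272601-6272700 (Cyp7a1), chr9:121914801-121914900 (Cyp8b1), chr1:74721901-74722000 (Cyp27a1), chr4:49499701-49499800 (Baat), chr7:12996301-12996400 (Slc27a5), chr12:80961201-80961300 (Slc10a1), chr2:69341501-69341600 (Abcb11), chr19:43792801-43792900 (Abcc2), chr5:8894601-8894700 (Abcb4) and chr4:133553801-133553900 (Nr0b2). They held between 1 and 5 CpGs each. The authors kept tiles with a coverage above 10 reads in each replicate of a tissue, and the depth above that floor is unknown for every value below.

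The whole tables set the scale for the values that follow. Library means over all tiles were 65.7 to 67.0% in liver, 65.4 to 68.2% in brain and 61.0 to 61.8% in heart, and the median tile was 0.28 points higher in liver than in brain, 3.5 points higher in liver than in heart and 3.0 points higher in brain than in heart. Heart was thus lower than the other tissues at the median tile, and differences from heart are to be read against that shift. The labelled tissues were checked on marker genes. The body level was lowest in liver for 11 of 11 hepatocyte markers with tiles, lowest in heart for 10 of 11 cardiomyocyte markers and lowest in brain for 5 of 11 neural markers, the other 6 of which were lowest in heart. Over all 20430 genes with body tiles, liver was lowest in 2918, brain in 4402 and heart in 13100. Heart was thus lowest in most genes, and the heart count is to be read against that. For other cell types that liver tissue holds, liver was lowest in the body of 1 of 5 leukocyte markers, 0 of 5 endothelial markers and 3 of 5 bile duct markers, and the part of these cells in the results was not tested. In bulk tissue a level between 0 and 100% can come from fewer cells of a type or from part of the molecules within a cell type, and these cannot be told apart.

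Many tiles of the bile acid genes were lower in liver than in the other tissues, and few were higher. Each tile was called when its adjusted p, from limma with Benjamini-Hochberg adjustment over all 758685 tiles, did not exceed 0.01 and the tissues differed by 25 percentage points or more. Liver was lower than brain in 45 of the 152 tiles (29.6%), where 4.76% of all tiles were called in that direction, and higher in 0, where 5.04% of all tiles were called. Liver was lower than heart in 32 tiles (21.1%), against 2.87% of all tiles, and higher in 4 (2.6%), against 7.94% of all tiles. In 31 tiles (20.4%) liver was lower than both, against 2.46% of all tiles and 2.74% of all tiles lying in the promoter or body of any gene. Liver was higher than both in 0 of the 152 tiles, against 2.06% of all tiles. The comparisons with brain and with heart use the same 12 liver libraries and are therefore not independent of each other.

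The libraries themselves showed the same separation. In 37 of the 152 tiles the highest of the 12 liver libraries lay below the lowest of the 12 brain and heart libraries, against 3.06% of all tiles. All 31 tiles called lower than both lay in gene bodies, and 9 of the 10 genes had at least 1, Slc10a1 being the exception among tiles present in all 3 tables. Over these 31 tiles liver had a median level of 26.9%, brain 87.3% and heart 78.9%, close to the medians of 26.0, 82.0 and 77.7% over the 18635 tiles of the whole series called in the same way. Over all 152 tiles the median difference was -5.47 points for liver minus brain and 0.06 points for liver minus heart, where the median tile of the series stood at 0.28 and 3.5 points.

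Averaged over each body, the bile acid genes were lowest in liver in 10 of 10 cases, whereas liver was lowest in 2918 of the 20430 genes with body tiles. The median body difference was -16.0 points against brain and -7.63 points against heart, where the medians over all genes were 0.74 and 4.08 points. A region was called where its adjusted p did not exceed 0.01 and the tissues differed by 10 points or more. By this rule liver was lower than brain in 10 of 10 bodies, against 6.45% of all bodies, and higher in 0, against 6.22%. With the median over the tiles of a body in place of the mean, the bodies of Abcb11, Abcc2, Abcb4 and Slc27a5 no longer passed, which left 6 of 10. Without any 1 of 5 libraries, 3 of liver and 2 of brain, the Abcb4 body also fell short of 10 points, and without 1 brain library the Slc27a5 body did. Liver was lower than heart in 3 of 10 bodies, those of Cyp7a1, Cyp8b1 and Nr0b2, against 3.33% of all bodies, and higher in 0, against 16.1%. These 3 bodies were also the ones called lower than both tissues, against 2.89% of all bodies. For Cyp27a1, Slc10a1, Abcb11, Abcc2 and Slc27a5 the difference from heart had an adjusted p of 0.01 or less but was under 10 points.

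**Figure D1:**
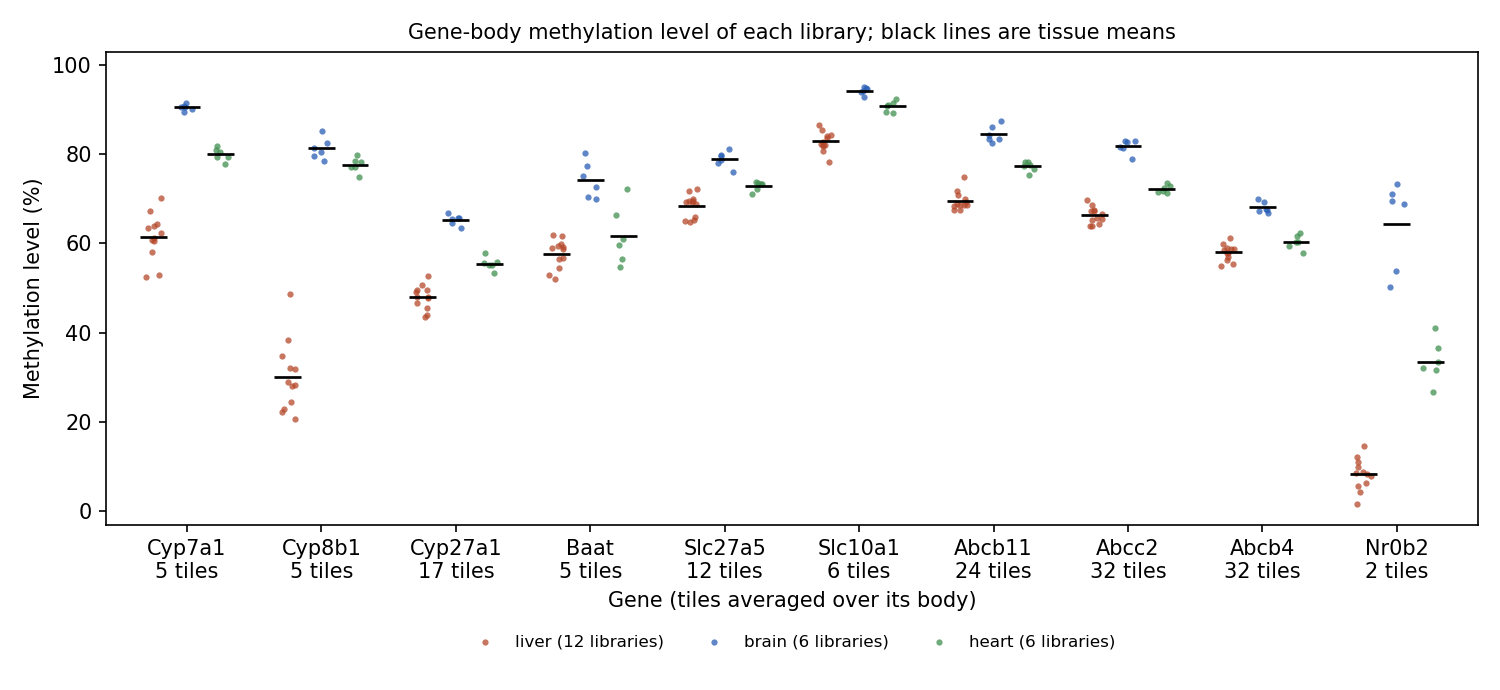
Methylation level in percent averaged over the body tiles of each gene (y axis), for the 10 genes (x axis, with the number of tiles averaged), with 1 point per library and a black line at each tissue mean. No liver point reaches a brain point in any gene, and liver and heart points overlap in Baat, Slc27a5 and Abcb4 only.

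Promoter levels were available for 4 genes only, and they were not tested against the bodies. Liver was lower than brain in 1 of 4 promoters, against 8.37% of all promoters, and higher in 0, against 7.46%. Liver was lower than heart in 1 of 4, against 4.6%, and higher in 0, against 16.2%. Both calls fell on Abcc2, the 1 promoter of the 4 lower in liver than in both tissues, where 4.05% of all promoters were. The promoters of Cyp8b1, Cyp27a1 and Abcb4 did not pass in any comparison.

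Cyp7a1 encodes the rate-limiting 7α-hydroxylase of the classical pathway. Its body of 5 tiles stood at 61.5% ± 5.2 in liver (SD, n = 12), 90.5% ± 0.62 in brain (n = 6) and 80.0% ± 1.5 in heart (n = 6). The liver libraries lay between 52.4 and 70.2%, all below the heart libraries at 77.8 to 81.9% and the brain libraries at 89.5 to 91.4%. Liver was 29.0 points below brain (difference -29.0, SE 1.85, adjusted p = 2.1e-12) and 18.5 points below heart (difference -18.5, SE 1.85, adjusted p = 4.2e-09). The spread among the livers was several times that among the brains. The tile shown for Cyp7a1, at +2981 bp in coding exon 3, had a lowest, median and highest level of 37.5, 52.9 and 65.0% in liver, 76.4, 79.2 and 84.9% in brain, and 79.1, 80.8 and 85.5% in heart. Its difference was -28.0 points from brain (SE 2.94, adjusted p = 3.32e-08) and -29.6 points from heart (SE 2.94, adjusted p = 1.25e-08), with no overlap between liver and either tissue.

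Another tile of Cyp7a1 set brain apart. At +7381 bp, in exon 6, levels were 19.8% ± 11.1 in liver, 91.3% ± 4.1 in brain and 39.0% ± 4.0 in heart, and brain exceeded heart by 52.2 points (SE 4.75, adjusted p = 7.26e-09). Liver differed by -71.4 points from brain (SE 4.11, adjusted p = 8.67e-13) and by -19.2 points from heart (SE 4.11, adjusted p = 0.000459), the latter under the 25 points of a call, and the liver libraries at 2.7 to 36.8% overlapped the heart libraries at 32.6 to 44.1%. The neighbouring tile of the same exon, at +7181 bp, stood at 94.8, 97.9 and 98.0% in the 3 tissues. In mm10 the tile at +7381 bp has 1 CpG, so its level rests on that site.

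Cyp8b1 encodes the sterol 12α-hydroxylase that directs synthesis to cholic acid, and its gene is a single exon. Its body showed the largest separation of the 3 synthesis enzymes, with 30.1% ± 7.9 in liver, 81.3% ± 2.3 in brain and 77.5% ± 1.7 in heart over 5 tiles. Liver was lower by 51.2 points than brain (difference -51.2, SE 2.83, adjusted p = 1.55e-13) and by 47.5 points than heart (difference -47.5, SE 2.83, adjusted p = 4.79e-13). Only 46 of the 20430 bodies were as far below the mean of brain and heart. The tile shown, at +1454 bp, had a lowest, median and highest level of 16.7, 22.6 and 64.3% in liver, 91.5, 96.2 and 98.0% in brain and 90.0, 96.1 and 100% in heart. A single liver library stood at 64.3%, the next highest at 40.7%, and even that library was below every brain and heart library.

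The first tile of the Cyp8b1 exon, at +554 bp, was lower in all tissues, at 20.6% ± 9.0 in liver, 44.3% ± 9.9 in brain and 44.9% ± 6.7 in heart. The 2 promoter tiles, at -3146 and -3046 bp, did not separate liver from the others, with a mean of 41.5% ± 12.2 in liver, 48.2% ± 6.1 in brain and 35.2% ± 5.0 in heart. The difference was -6.71 points from brain (SE 4.63, adjusted p = 0.225) and 6.34 points from heart (SE 4.63, adjusted p = 0.231), but the liver libraries lay on either side. There were 6 at 21.9 to 40.8%, below every brain library (41.5 to 58.6%), and 6 at 47.1 to 59.9%, above every heart library (30.1 to 42.4%). The lower group was the first 6 liver libraries in their deposited order, and the higher group the last 6. The same groups parted at the Baat tile at +6807 bp, at 33.9 to 49.7% and 52.2 to 69.7%. They also parted at the Abcc2 tile at +48143 bp, at 63.7 to 75.4% and 85.1 to 94.9%. Averaged over all 152 tiles, the first 6 libraries stood at 57.8 to 59.4%, and each of the last 6 stood higher, up to 62.8%. At other tiles, such as that of Cyp8b1 at +1454 bp, the groups overlapped. They also overlapped in the average over the 31 tiles called lower than both tissues. What set these groups apart was not tested.

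Cyp27a1 encodes the mitochondrial sterol 27-hydroxylase of the alternative pathway. Its body of 17 tiles stood at 47.9% ± 2.7 in liver, 65.3% ± 1.1 in brain and 55.5% ± 1.4 in heart. Liver differed by -17.4 points from brain (SE 1.04, adjusted p = 7.45e-13) and by -7.54 points from heart (SE 1.04, adjusted p = 8.03e-07), the latter under the 10 points set for a call. In intron 1, the printed tile at +8416 bp had a lowest, median and highest level of 8.0, 23.6 and 28.6% in liver, 65.5, 70.8 and 81.8% in brain, and 73.1, 76.5 and 79.1% in heart. The difference was -50.8 points from brain (SE 2.86, adjusted p = 5.78e-13) and -55.1 points from heart (SE 2.86, adjusted p = 1.74e-13). The adjacent tile at +8316 bp was called in the same way, so the change spanned both tiles of this stretch.

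Closer to the start, Cyp27a1 separated brain and not liver. The 5 tiles from +316 to +816 bp averaged 7.5% in liver, 23.4% in brain and 9.3% in heart. At +816 bp liver and heart were both at 17.5% and brain at 47.9% ± 9.2, and brain exceeded heart by 30.4 points (SE 3.66, adjusted p = 4.88e-07) with no overlap between their libraries. The 5 promoter tiles were highly methylated in every tissue, at 85.7% ± 2.6 in liver, 89.0% ± 1.4 in brain and 82.6% ± 2.7 in heart.

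Baat encodes the enzyme that joins taurine or glycine to bile acids. Its 5 body tiles averaged 57.7% ± 3.2 in liver, 74.3% ± 4.1 in brain and 61.7% ± 6.5 in heart. Liver was lower than brain (difference -16.6, SE 2.12, adjusted p = 3.61e-07), whereas the difference from heart was -4.05 points (SE 2.12, adjusted p = 0.0946) and the libraries of liver and heart overlapped. The average covered 2 adjacent tiles of exon 3 that ran in opposite directions. At +6807 bp the lowest, median and highest level was 33.9, 51.0 and 69.7% in liver, 80.8, 87.6 and 93.8% in brain and 73.7, 82.2 and 86.0% in heart, and liver was lower by 36.1 and 30.5 points (differences -36.1 and -30.5, SE 4.03, adjusted p = 8.85e-08 and 1.08e-06). At +6907 bp liver was highest, at 71.5% ± 7.4 against 55.4% ± 8.2 in brain and 41.9% ± 7.3 in heart, and its difference from heart was 29.6 points (SE 3.67, adjusted p = 4.13e-07). That tile holds 0 whole CpGs in mm10, and 1 CpG lies across its border with the tile at +6807 bp.

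Slc27a5 encodes the bile acid CoA ligase that activates bile acids before conjugation. Liver was lower in a cluster of tiles near the start. At +1541, +1641 and +1841 bp, in intron 1 and exon 2, liver stood at 32.3, 44.9 and 24.1% against 76.5, 96.5 and 76.8% in brain and 62.8, 88.6 and 73.0% in heart. In the tile shown, +1841 bp from the start, the libraries had a lowest, median and highest level of 12.4, 23.4 and 41.2% in liver, 75.0, 76.7 and 78.5% in brain and 66.0, 73.2 and 79.0% in heart. The difference was -52.7 points from brain (SE 3.10, adjusted p = 1.24e-12) and -48.9 points from heart (SE 3.10, adjusted p = 5.71e-12), and the groups did not overlap.

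Further into Slc27a5 the order was turned. At +7141 bp, in exon 6, liver stood at 31.8% ± 7.6, above 13.9% ± 3.4 in brain and 6.55% ± 3.9 in heart, and every liver library was above every brain and heart library, with 20.8% as the lowest in liver and 16.7% as the highest of the others. Liver exceeded heart there by 25.3 points (SE 2.94, adjusted p = 1.57e-07). The difference from brain, 17.9 points (SE 2.94, adjusted p = 2.43e-05), was under the 25 points set for a tile. Over the whole body of 12 tiles the levels were 68.4% ± 2.6, 78.9% ± 1.8 and 72.9% ± 1.0 in liver, brain and heart.

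Slc10a1 encodes Ntcp, the sodium-dependent transporter that brings bile acids back into the hepatocyte. In each comparison 0 of its 6 tiles present in all 3 tables passed, and its body level in liver was the highest of the 10. A further tile at +7254 bp, absent from the brain table, stood at 56.9% in liver (40.9 to 76.9%) and 87.2% in heart (81.2 to 92.5%), and was lower in liver in a fit of those 2 tables (difference -30.3, SE 4.38, adjusted p = 1.33e-05). The 6 tiles lay in introns between +7454 and +10054 bp. The tile shown, at +7454 bp, had a lowest, median and highest level of 59.9, 72.7 and 75.6% in liver, 91.6, 93.6 and 97.7% in brain and 84.7, 85.7 and 91.0% in heart. The difference was -22.9 points from brain (SE 2.04, adjusted p = 2.14e-09) and -16.0 points from heart (SE 2.04, adjusted p = 6.14e-07), so the groups did not overlap but the size was below 25 points. The body level averaged 82.8% ± 2.2 in liver, 94.2% ± 0.83 in brain and 90.7% ± 1.2 in heart, which passed against brain (difference -11.4, SE 0.858, adjusted p = 4.54e-11).

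Abcb11 encodes the bile salt export pump of the canalicular membrane. Of its 24 tiles, all in the body, liver was lower than both tissues in 7, placed from +865 to +81865 bp. The pair nearest the start carried the largest difference. The tile shown, at +1065 bp in intron 1, had a lowest, median and highest level of 16.7, 25.9 and 51.7% in liver, 88.8, 93.8 and 97.7% in brain and 78.4, 91.5 and 93.4% in heart. The difference was -66.4 points from brain (SE 3.72, adjusted p = 5.37e-13) and -61.9 points from heart (SE 3.72, adjusted p = 2.33e-12). A single liver library stood at 51.7%, the next highest at 35.4%. The tile at +865 bp was almost the same, at 28.7% ± 9.5, 93.3% ± 4.1 and 88.3% ± 3.6.

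Other parts of the Abcb11 body were highly methylated in liver. The tiles at +2965 to +3065 bp averaged 84.1, 86.2 and 86.8% in liver, brain and heart, and those at +41165 to +41365 bp averaged 96.4, 91.9 and 83.0%. In contrast, the lowest liver tile of the gene, at +17465 bp in exon 5, stood at 0.0 to 24.0% in liver, 30.6 to 63.6% in brain and 18.2 to 40.0% in heart, and was called lower than brain only. At +100865 bp, in intron 28, liver was above heart, at 79.3% ± 7.0 against 51.1% ± 8.6 (difference 28.3, SE 3.81, adjusted p = 1.4e-06), with brain at 69.6% ± 8.8. Averaged over the body, the levels were 69.5% ± 2.1 in liver, 84.5% ± 1.9 in brain and 77.3% ± 1.1 in heart.

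Abcc2 encodes Mrp2, the canalicular exporter of conjugated bilirubin and divalent bile acid conjugates. The largest difference of all 152 tiles was here. The tile shown, at +10543 bp in intron 2, had a lowest, median and highest level of 10.8, 19.9 and 33.8% in liver, 90.1, 94.6 and 98.4% in brain and 89.3, 91.5 and 96.7% in heart. The difference was -73.6 points from brain (SE 2.63, adjusted p = 1.79e-16) and -70.9 points from heart (SE 2.63, adjusted p = 4.76e-16). The 7 tiles lower than both formed pairs at +5343 and +5443, at +10543 and +10643, and at +30843 and +30943 bp, with a single one at +15943 bp.

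Abcc2 was also the one gene of the 4 with promoter tiles whose promoter was called. With the promoter taken as 1000 bp upstream to 500 bp downstream, Abcc2 had no promoter tile, and Nr0b2, whose tiles then counted as promoter, was the one called lower in liver than in both tissues. The 2 promoter tiles of Abcc2 adjoin each other at chr19:43780201-43780400, at -1957 and -2057 bp from its start. Their plus-strand sequence in mm10 has 7 CpGs, shown in capitals.
Abcc2 upstream: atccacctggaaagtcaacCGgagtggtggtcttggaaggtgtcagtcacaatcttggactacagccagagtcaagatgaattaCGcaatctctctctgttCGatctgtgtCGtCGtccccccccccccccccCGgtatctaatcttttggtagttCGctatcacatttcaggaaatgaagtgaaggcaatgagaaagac

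Over this stretch the liver libraries ran from 5.85 to 13.6%, the heart libraries from 22.7 to 33.0% and the brain libraries from 46.6 to 74.9%, so that the 3 tissues did not overlap. The means were 9.96% ± 2.6 in liver, 61.4% ± 10.5 in brain and 26.1% ± 3.8 in heart. Liver differed by -51.5 points from brain (SE 2.77, adjusted p = 9.79e-14) and by -16.1 points from heart (SE 2.77, adjusted p = 1.64e-05). The same order appeared at +51443 bp in intron 29, at 17.1% ± 4.7, 62.9% ± 8.6 and 36.5% ± 6.0 in liver, brain and heart. At +48343 bp, in intron 28, liver was instead above heart, at 81.8% ± 2.8 against 50.5% ± 4.1 (difference 31.3, SE 1.82, adjusted p = 1.33e-12), with brain at 74.3% ± 4.9.

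Abcb4 encodes Mdr2, the canalicular flippase that supplies phospholipid to bile. It is the one gene of the 10 with tiles running across its start, and its promoter is dense in CpG. The bases before the start, chr5:8893471-8893720 on the plus strand of mm10 and as listed by RefSeq, hold 18 CpGs, in capitals, and are shown because the tiles there were unmethylated in all 3 tissues.
Abcb4 upstream: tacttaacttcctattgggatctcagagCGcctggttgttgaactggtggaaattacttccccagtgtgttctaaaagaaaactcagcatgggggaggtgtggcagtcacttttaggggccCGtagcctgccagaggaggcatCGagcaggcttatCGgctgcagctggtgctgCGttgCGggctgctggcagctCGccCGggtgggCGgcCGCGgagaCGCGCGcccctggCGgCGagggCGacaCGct

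Together with 50 bases after the start this promoter holds 21 CpGs. Among the 32851 promoters of that length in the RefSeq table the median was 7, and 76.9% had 21 or fewer. The other matched promoters held 5 (Cyp8b1), 10 (Cyp27a1), 2 (Slc10a1), 4 (Abcb11), 1 (Abcc2) and 3 (Nr0b2) CpGs, while Cyp7a1, Baat and Slc27a5 were not matched. CCGG, which is its own reverse complement and is the site cut by MspI, the enzyme commonly used for RRBS, was present in the promoters of Cyp27a1 and Abcb4, and in 52.8% of all promoters in the table.

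The Abcb4 promoter was unmethylated in every tissue. Its 3 promoter tiles averaged 1.32% ± 0.53 in liver, 0.683% ± 0.23 in brain and 1.16% ± 0.92 in heart, and the differences of 0.64 points from brain (SE 0.35, adjusted p = 0.122) and 0.17 points from heart (SE 0.35, adjusted p = 0.688) did not pass. From +430 bp the tissues parted. At +530 bp levels were 3.92, 12.1 and 10.8% in liver, brain and heart, at +730 bp 7.36, 20.3 and 19.4%, and at +930 bp, in intron 2, the tile shown had a lowest, median and highest level of 10.8, 15.8 and 24.3% in liver, 60.5, 70.0 and 77.3% in brain and 56.0, 64.0 and 73.4% in heart. At that tile liver differed by -52.5 points from brain (SE 2.70, adjusted p = 1.15e-13) and by -48.4 points from heart (SE 2.70, adjusted p = 6.42e-13). The low level around the start thus reached farther into the gene in liver than in brain and heart.

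**Figure D2:**
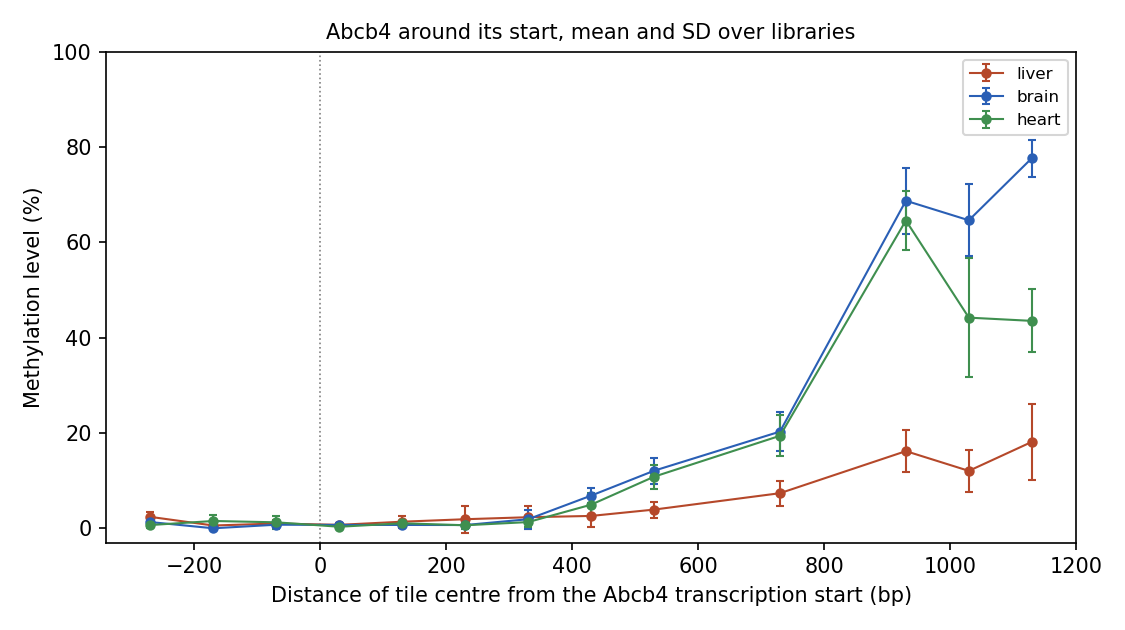
Methylation level in percent (y axis) of the 13 tiles within 2 kb of the Abcb4 start against their distance from it in bp (x axis), as mean and SD over the libraries of each tissue. All tissues lie near 0% up to +330 bp, and at +1130 bp liver is at 18.1%, heart at 43.5% and brain at 77.6%.

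Deeper in Abcb4, brain stood apart from the other tissues at +28030 and +28130 bp. It did not at +31230 to +31830 bp, where liver, brain and heart averaged 88.4, 89.5 and 87.4%. At +28130 bp, in intron 12, levels were 25.5% ± 11.99 in liver, 84.9% ± 8.4 in brain and 34.4% ± 8.5 in heart. Liver differed by -59.4 points from brain (SE 5.05, adjusted p = 9.35e-10), whereas the difference from heart was -8.91 points (SE 5.05, adjusted p = 0.158). The body as a whole stood at 58.0% ± 1.8 in liver, 68.1% ± 1.3 in brain and 60.3% ± 1.6 in heart, and liver and heart overlapped.

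Nr0b2 encodes Shp, the nuclear receptor without a DNA-binding domain through which bile acids repress Cyp7a1 and Cyp8b1. Both of its tiles lay in coding exon 1, and the gene had the lowest body level in liver of the 10, at 8.27% ± 3.6, against 64.5% ± 9.8 in brain and 33.5% ± 4.8 in heart. Liver libraries lay between 1.55 and 14.7%, heart libraries between 26.7 and 41.0% and brain libraries between 50.2 and 73.3%, with no overlap among the 3 tissues. Liver differed by -56.2 points from brain (SE 2.85, adjusted p = 3.42e-14) and by -25.2 points from heart (SE 2.85, adjusted p = 3.37e-08), and brain exceeded heart by 30.9 points (SE 3.30, adjusted p = 2.55e-08). The tile of the printed sequence, at +475 bp, had a lowest, median and highest level of 3.1, 7.2 and 13.2% in liver, 55.7, 71.0 and 75.6% in brain and 30.5, 40.1 and 44.6% in heart. Of the 6 brain libraries, 2 stood at 55.7 and 56.9% and the other 4 between 70.1 and 75.6%, and the same 2 were lowest at +375 bp, at 44.7 and 50.6%.

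**Figure D3:**
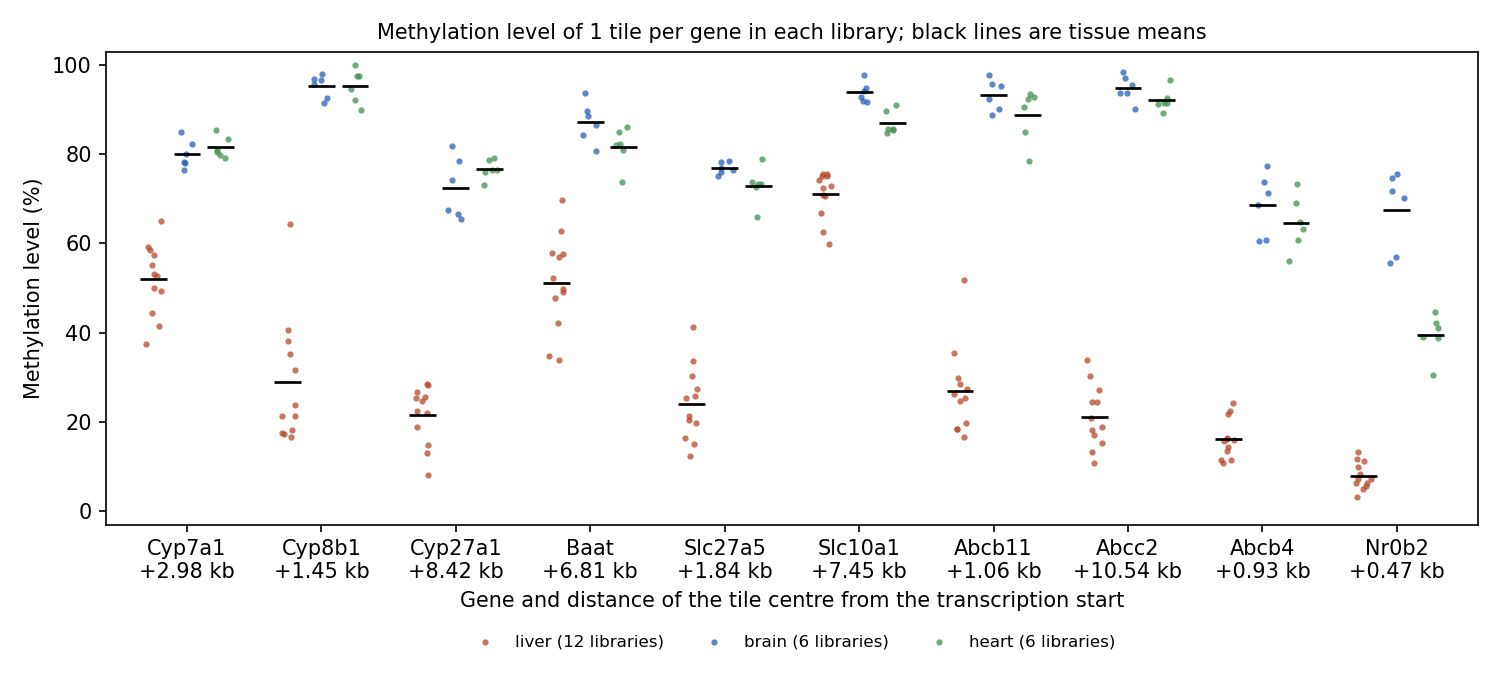
Methylation level in percent (y axis) of 1 tile per gene (x axis, with the distance of its centre from the start in kb), with 1 point per library and a black line at each tissue mean. In all 10 tiles, Slc10a1 included, every liver library lies below every brain and heart library, and at Nr0b2 heart lies between the other tissues.

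Along the genes, tiles called lower in liver were most frequent just after the start. Of 28 tiles in the first 2 kb, 13 were lower in liver than in both tissues (46.4%), where 1.38% of tiles at that position in all genes were. The share was 8 of 33 (24.2%) from 2 to 10 kb, where 4.1% of tiles of all genes were, and 10 of 79 (12.7%) beyond 10 kb, where 2.93% were. Upstream of the start it was 0 of 12, where 2.2% of tiles of all genes were. The 13 tiles were 4 of Cyp8b1, 3 of Slc27a5, 3 of Abcb4, 2 of Abcb11 and 1 of Nr0b2. These bins were chosen after the values were seen.

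**Figure D4:**
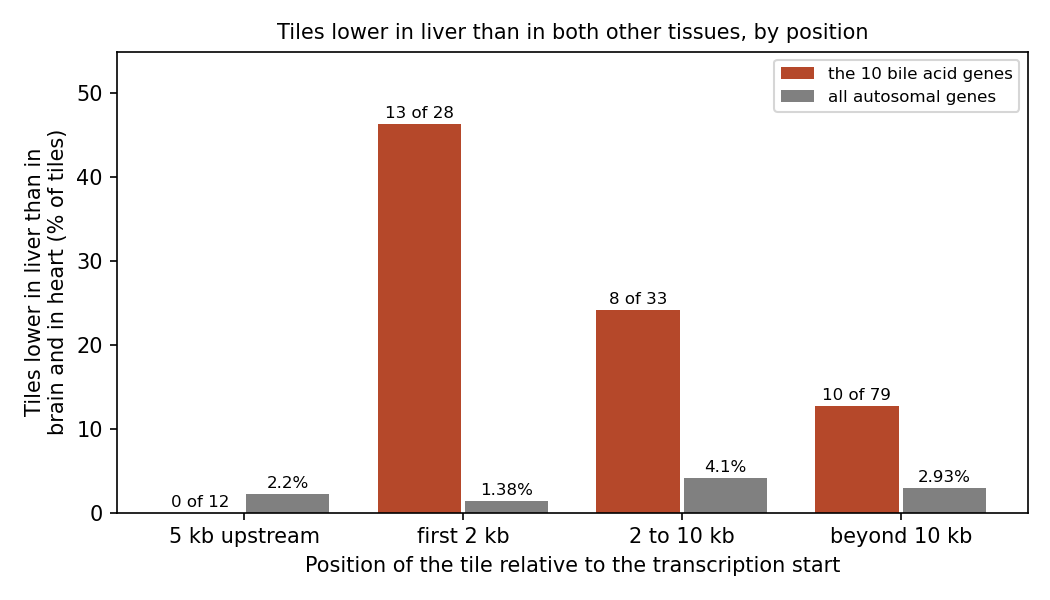
Tiles lower in liver than in brain and in heart as a percentage of the tiles at each position (y axis), for 4 positions relative to the transcription start (x axis), in the 10 bile acid genes and in all autosomal genes. The share in the bile acid genes is 46.4% in the first 2 kb and 12.7% beyond 10 kb, against 1.38% and 2.93% over all genes.

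Taken as 1 window of 2 kb on either side of the start, also chosen after the values were seen, 7 of the 10 genes had tiles. In Cyp8b1, Slc27a5, Abcb11, Abcc2 and Nr0b2 the window was lower in liver than in both tissues, where 3.41% of the windows of all genes were. The Abcb11 window showed the largest separation, at 27.8% ± 9.0 in liver, 93.3% ± 2.4 in brain and 88.6% ± 3.4 in heart. The windows of Cyp27a1 and Abcb4 passed against brain only, and that of Abcb4 missed the 10 points against heart narrowly, at -9.51 points (SE 0.715, adjusted p = 6.9e-11).

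**Figure D5:**
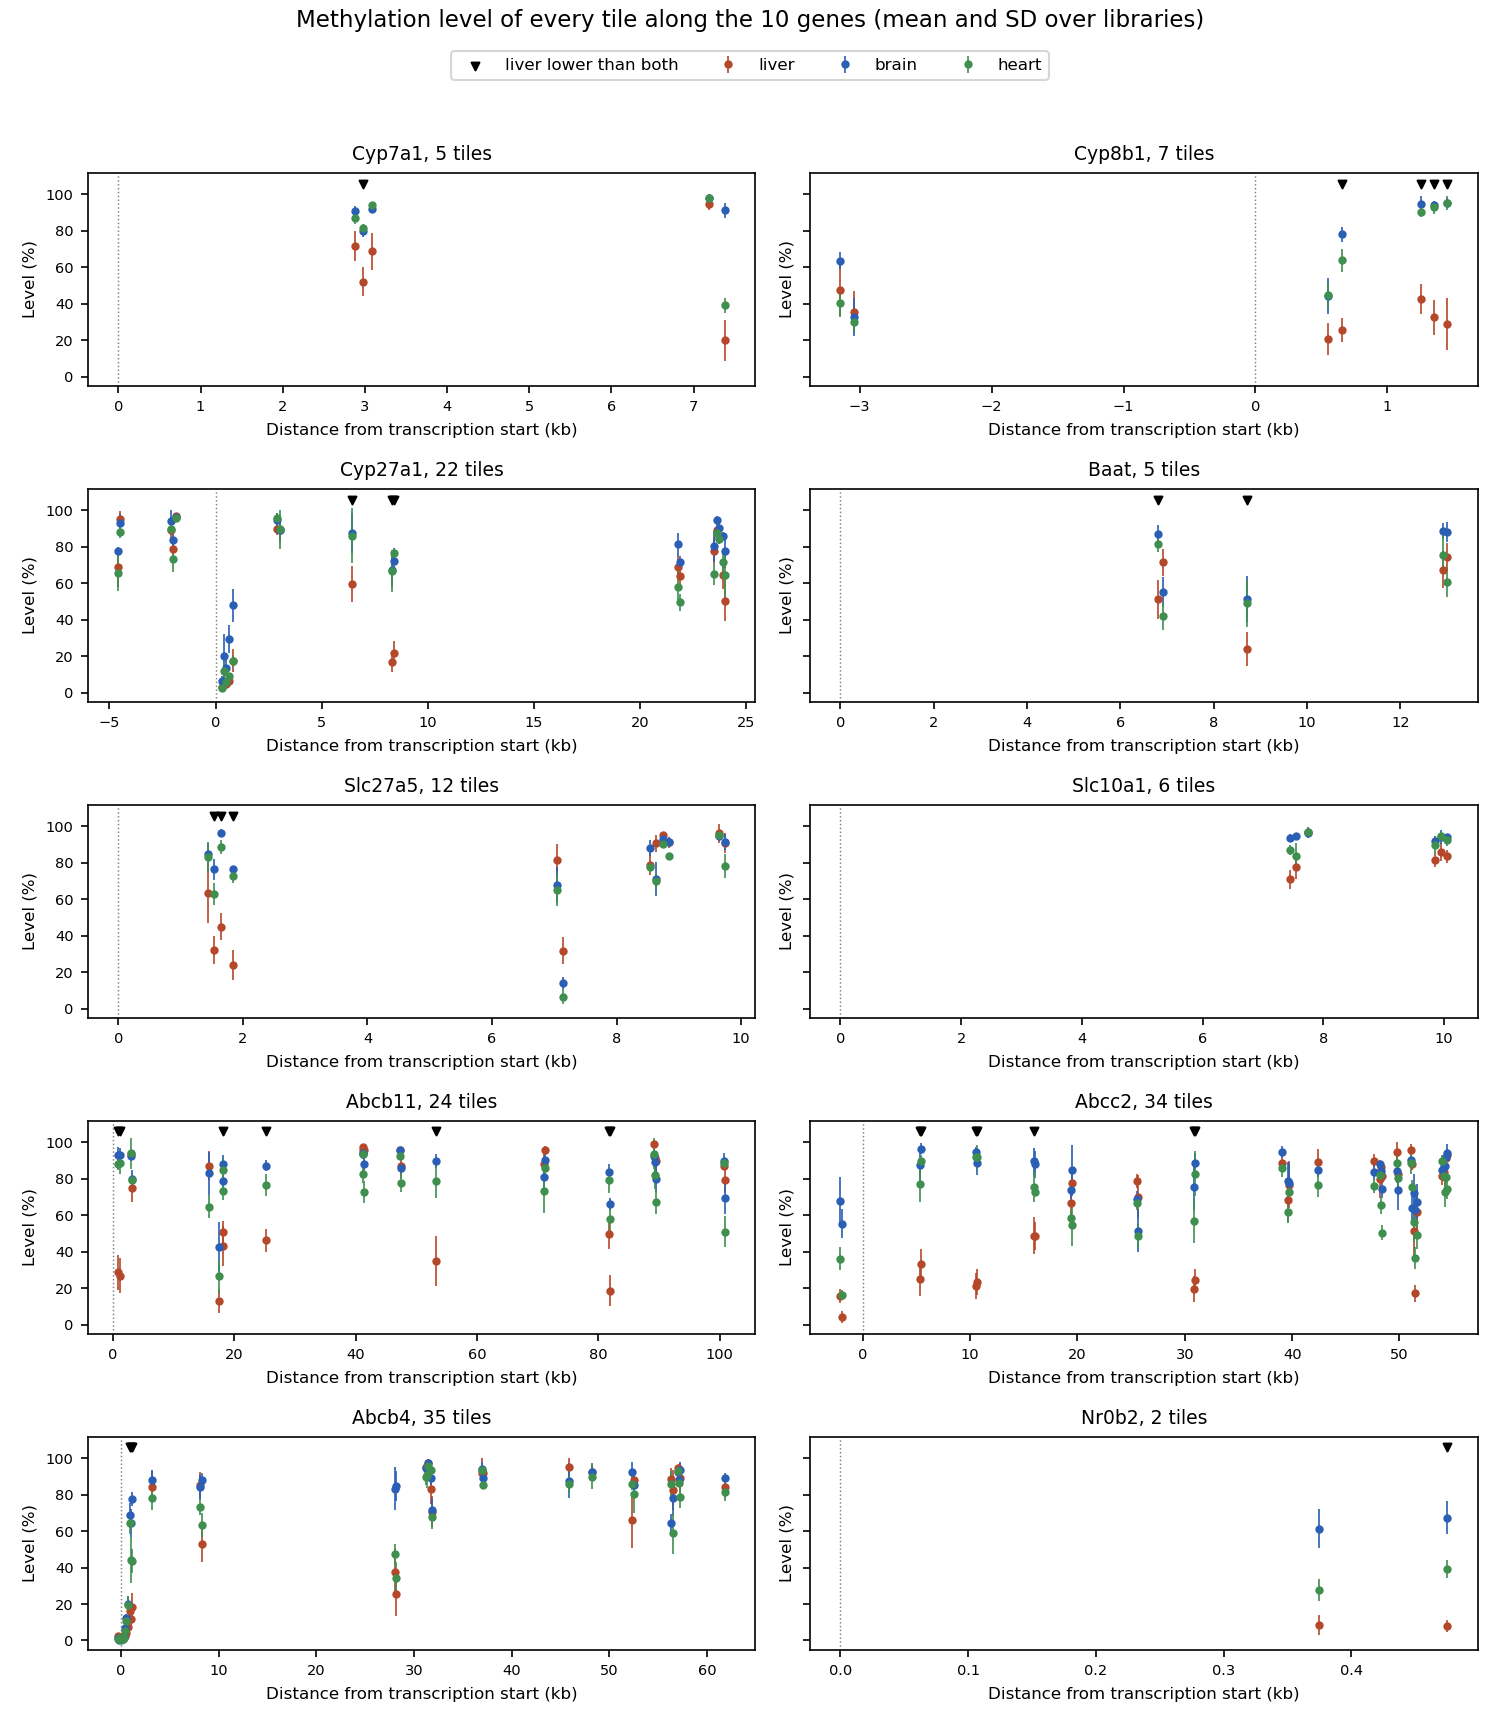
Methylation level in percent (y axis) of each of the 152 tiles against its distance from the transcription start in kb (x axis), 1 panel per gene, as mean and SD over the libraries of each tissue, with a black triangle above each tile called lower in liver than in both other tissues. The 31 triangles stand in 9 panels, often in neighbouring tiles, and none stands left of a start.

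Tiles lower in liver stood in short runs, separated by stretches without such a call. With tiles joined where their starts lay at most 300 bp apart, the 10 genes held 50 stretches of 2 or more tiles. In 7 of these all tiles were lower in liver than in both tissues, in 8 some were, and in 35 none was. The 31 tiles lay in introns in 20 cases and in exons in 11. They held a mean of 2.35 CpGs, against 2.99 in the other 121 tiles, and 10 of 31 had at least 50 repeat-masked bases, against 31 of 121.

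The median SD over the 31 tiles was 8.2 points in liver, 6.1 points in heart and 4.3 points in brain, while over the other 121 tiles it was 5.1, 4.7 and 4.2 points. Across the whole series, tiles lower in liver than in both tissues had a median SD of 6.9 points in liver, 5.2 points in heart and 5.9 points in brain, against 4.4, 4.3 and 4.6 points over all tiles. Whether the spread differed between tissues was not tested. Averaged over the 31 tiles, the liver libraries ran from 26.2 to 38.0%, the brain libraries from 79.1 to 85.7% and the heart libraries from 73.2 to 76.2%. The distance between tissues in these averages follows from how the tiles were chosen, and whether gender had a part in the spread was not tested.

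Brain and heart differed from each other in fewer of these tiles. Brain was above heart in 12 of 152 tiles (7.9%), where 7.71% of all tiles were, and below it in 0, where 1.75% were, so the share above was near that of all tiles. Brain was above heart in the bodies of Cyp7a1, Baat and Nr0b2, 3 of 10, where 14.5% of all bodies were, and below it in 0, where 1.37% were. Among promoters brain was above heart at Abcc2, 1 of 4, where 14.9% of all promoters were, and below it in 0, where 2.19% were. At the Abcc2 promoter brain exceeded heart by 35.3 points (SE 3.20, adjusted p = 1.85e-09).

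Other genes of bile acid metabolism were taken from a list covering further synthesis enzymes, transporters and regulators. Among 14 further synthesis genes, 7 bodies were lower in liver than in brain, where 6.45% of all bodies were, and 0 were higher, where 6.22% were. Of the 7, 5 were lower than in heart too, those of Hsd3b7, Acox2, Scp2, Slc27a2 and Cyp2c70. Lower than both were 2.89% of all bodies. Over the 14 genes the median body difference was -8.98 points from brain and 0.96 points from heart, nearer to the medians of all genes than that of the 10. By bodies called lower than both tissues they did not stand nearer, with 5 of 14 against 3 of 10. Hsd3b7, a dehydrogenase acting on the sterol nucleus, had the largest body difference among these, at 32.8% ± 3.3 in liver against 68.4% ± 12.3 in brain and 74.9% ± 1.8 in heart. Of 12 promoters with tiles, 2 were lower in liver than in brain, where 8.37% of all promoters were. The promoter of Cyp2c70 was the 1 called higher than in brain, where 7.46% were. Only that of Cyp7b1, the oxysterol 7α-hydroxylase, was lower than both, where 4.05% of all promoters were. It stood at 46.9% ± 26.2 in liver against 89.6% ± 3.0 and 88.5% ± 2.4, and its liver libraries were spread from 19.4 to 87.0%.

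Further transporters were few, and their difference from the 10 was not tested. Of 9 with body tiles, 0 were lower in liver than in both tissues, where 2.89% of all bodies were, 1 was lower than in brain, where 6.45% were, and 3 were higher than in heart, where 16.1% were. Slco1a4, an uptake carrier of organic anions, was higher in liver, at 83.0% ± 6.2 against 46.8% ± 4.2 in brain and 52.3% ± 6.6 in heart. Of 8 transporter promoters with tiles, 2 were lower in liver than in both tissues, where 4.05% of all promoters were. Higher than both was 1, where 848 of all 18664 promoters were. Against brain, 4 were lower and 1 higher, where 8.37% and 7.46% of all promoters were. Against heart, 2 were lower and 2 higher, where 4.6% and 16.2% were. Slc51b, a subunit of the basolateral bile acid exporter, had a promoter level of 19.98% ± 5.5 in liver against 83.6% ± 6.4 in brain and 76.1% ± 6.4 in heart, and Abcg5, a subunit of the canalicular sterol exporter, had 9.08% ± 2.6 against 51.3% ± 9.8 and 23.3% ± 2.4. The 5 kb upstream of Abcg8, the partner of Abcg5, stood higher in liver, at 67.9% ± 2.5 against 57.7% ± 3.5 and 56.0% ± 1.6. Whether upstream tiles of these 2 genes lay within each other or another gene was not examined, so they may not be separate promoters.

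Among 8 further regulators, the bodies of Rxra and Nr1h3 were lower in liver than in both tissues, where 2.89% of all bodies were. With that of Nr1h4, the bile acid receptor Fxr, 3 of the 8 bodies were lower than in brain, where 6.45% were. In 0 bodies was liver higher than in brain, where 6.22% were. Rxra, the partner receptor of Fxr, stood at 31.4% ± 2.1 in liver, 64.0% ± 2.6 in brain and 53.3% ± 0.64 in heart over 70 tiles. Nr1h4 stood at 57.4% ± 3.5, 72.2% ± 1.6 and 66.1% ± 0.86, with a difference from heart of -8.66 points (SE 1.31, adjusted p = 2.91e-06), under the 10 points of a call. None of the 6 regulator promoters with tiles passed against either tissue. Of all promoters, 8.37% were lower and 7.46% higher in liver than in brain, and 4.6% were lower and 16.2% higher than in heart.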

How the data were processed

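Enhanced RRBS libraries of 12 livers, 6 brains and 6 hearts were sequenced and mapped for the authors by a service company with its own methods, and methylKit and Bismark are named in the submitters' processing notes without a role. The authors deposited 1 table per tissue on mm10, with a methylation level per tile of 100 bp and library as a fraction from 0 to 1, kept where coverage exceeded 10 reads in each replicate and lay below an upper percentile, without read counts, so depth above that floor is unknown and no interval for counting error could be given. Fractions were multiplied into percent.

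Columns carry running numbers and no mouse or gender, so libraries were grouped by tissue. The labels give each library of a tissue its own mouse number. Of 12 mouse numbers, 6 occur in all 3 tissues and 2 carry opposite genders between tissues. Libraries of a tissue were compared for duplicates (correlations 0.934 to 0.975, at most 3.4% of tiles equal).

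Tiles in all 3 tables were assigned to RefSeq genes on mm10 from 5000 bp upstream of the start to the gene's end. All tiles, and separately the mean of the promoter or body tiles of every gene, were fitted with limma 3.58.1 in R 4.3.3 over the 24 libraries with tissue as the factor and Benjamini-Hochberg adjustment over all tiles or all regions. The script was tested on simulated data. The 10 genes, the other lists and the tests were chosen with earlier results of these data known. For each gene the first-named tile was that with the largest difference of liver from the mean of brain and heart among tiles called in both comparisons in the same direction, or else the tile closest to the start. Tiles called in the opposite direction and further genes with the largest differences were also named, and the other named tiles were picked after their values were seen. Sequences are those of RefSeq, mm10.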

Additional observations from a re-analysis of the deposited data

Results flagged for a closer look

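Of 48 groups of 6 libraries tested for a single library far from the rest, 1 was flagged, the brain level of the Abcb4 promoter. Its highest brain library stood at 1.13%, the others between 0.5 and 0.67%, a gap of 0.73 of the whole range. Chance flags about 1 in 20 groups, and all 6 levels are near 0.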

How the results depend on the processing

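No difference that passed in the main run or in an alternative run changed direction between them. Differences that passed in neither could change direction. With the promoter taken as 1000 bp upstream to 500 bp downstream, liver minus heart at the Cyp27a1 promoter moved from 3.13 to -2.93 points. Brain minus heart at the Abcb4 promoter moved from -0.47 to 0.15 points. With a tile difference of 10 points in place of 25, liver was higher than brain in 7 tiles (0 at 25 points) and higher than heart in 26 (4), and brain was lower than heart in 2 (0) and higher in 40 (12), while the Slc10a1 tile passed against both tissues. Leaving out 1 library at a time, the count of tiles higher in liver than in brain ranged from 0 to 2. Over gene regions, liver was lower than brain in 7 regions with the median over tiles in place of the mean (11), where the bodies of Abcb11, Abcb4, Abcc2 and Slc27a5 no longer passed. With at least 3 tiles per region, liver was lower than heart in 2 regions (4) and brain higher than heart in 2 (4), and with a difference of 5 points these counts were 8 and 10. For the Abcb4 body, liver minus brain, the value stood close to 10 points, and leaving out any 1 of 5 libraries, 3 of liver and 2 of brain, took it to between -9.71 and -9.95 points. For the Slc27a5 body, liver minus brain, leaving out 1 brain library took it to -9.97 points. Among the single tiles and regions named, 18 values came to pass and 5 no longer passed under the alternatives as a whole, and 3 and 6 did so when single libraries were left out, each time in the same direction. The fifth of these losses, also with the median over tiles, was brain against heart in the body of Cyp7a1, at 5.23 points (Cyp7a1 body, brain minus heart). The cause of these shifts beyond the thresholds themselves was not tested. The log2 odds scale, a variance trend, fits of 2 tissues only, tables of 2 tissues, another promoter window and exact permutation tests kept every count within 1.5 times, although with the other window the promoter called changed from Abcc2 to Nr0b2.

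A stricter coverage minimum could not be tried without coverage. No paired analysis was possible because the columns carry no mouse number, and the fit with the mouse as a block was not run. Few tiles per gene, from 2 to 35, and no tile shared by the 3 tables near the start of Cyp7a1, Baat and Slc10a1 limit what the levels show.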
